A study of Rattus norvegicus with 6 samples.

Results

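The rows described here are the mature arms of miR-130a, miR-130b, miR-301a, miR-301b, miR-148a, miR-148b, miR-152 and miR-3590. They were picked by name, with earlier results of these data known, and 14 of the 1289 rows in the deposited miRNA table carry one of these names. Small RNA was counted in PC12 cells, a rat adrenal pheochromocytoma line that resembles neuron precursors and chromaffin cells. The labels put 3 libraries in a group called EC and 3 in a group called EN, give no genotype, agent, dose or time for either, and do not spell out the abbreviations. The title of the series concerns exosomes of endothelial cells engineered with Netrin-1, an axon guidance protein, in peripheral nerve repair. All 6 libraries come from the same line, and nothing says that replicates were separate cultures, so the p-values measure the spread between these libraries, which may be technical.

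A miRNA guides Argonaute to mRNAs mainly through its seed, bases 2 to 8 counted from the 5′ end, and usually 1 arm of the hairpin is kept as the guide. MiR-130 and miR-301 form 1 seed family, known for repressing PPARG and parts of TGF-beta signalling, and miR-130a is known in endothelial cells for repressing antiangiogenic homeobox genes. MiR-148 and miR-152 form another, known for repressing the DNA methyltransferase DNMT1. In both families the 3p arm is known as the guide.

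The sequences of the 3p arms are shown because they define both families, with the seed in capitals. They are RefSeq mature sequences of the GRCr8 build, which matched 12 of the 14 rows by name and hold no entry for miR-301a-3p or miR-148b-5p.
miR-130a-3p: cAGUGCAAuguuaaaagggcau
miR-130b-3p: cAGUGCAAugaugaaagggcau
miR-301b-3p: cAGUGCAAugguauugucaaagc
miR-148a-3p: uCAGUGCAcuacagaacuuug
miR-148b-3p: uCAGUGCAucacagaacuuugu
miR-152-3p: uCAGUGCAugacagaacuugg
The letters AGUGCA begin at base 2 in the first 3 and at base 3 in the other 3, so the seeds are the same word shifted by 1 base. Searched on the mature strand only, AGUGCA begins within bases 1 to 4 in 7 of the 530 known rat rows with a RefSeq sequence, or 1.32 percent. These are the 6 above and miR-291b. Counted base by base from the 5′ end, miR-130a-3p and miR-130b-3p are identical at 20 of 22 positions, and miR-148b-3p and miR-152-3p at 19 of 21.

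MiR-3590 is in the set by position and not by seed. Its annotated gene overlaps that of miR-130a on the opposite strand, and its arms are shown beside the miR-130a arms they face.
miR-130a-3p: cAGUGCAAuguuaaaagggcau
miR-3590-5p: uGCCCUUUuaacauugcacug
miR-130a-5p: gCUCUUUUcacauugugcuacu
miR-3590-3p: uAGCACAAugugaaaagagcuc
All 21 bases of miR-3590-5p are the perfect complement of bases in miR-130a-3p, and miR-130a-5p and miR-3590-3p share a complementary stretch of 20 bases. No source used here gives the strand rule of the counting, so reads of miR-130a and miR-3590 may not be separable, and values that set one against the other rest on how reads were assigned. In the GRCr8 annotation the gene of miR-301a overlaps Ska2 and Prr11, that of miR-148b overlaps Copz1 and that of miR-152 overlaps Copz2, where Copz1 and Copz2 encode coatomer subunits.

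The libraries held 4521694 to 6554639 miRNA counts, and levels are given as counts scaled to this sum with TMM factors (CPM). Of the markers of neuroendocrine and chromaffin cells, miR-7a-5p stood at 973 to 1488 CPM and miR-9a-5p at 1002 to 1640 CPM over all libraries, while miR-375-3p reached at most 3.19 CPM and miR-124-3p at most 1.10 CPM. The 6 markers summed to 2210 to 2726 CPM in EC and 2283 to 2762 CPM in EN. The 2 arms of the endothelial miR-126a summed to 1064 to 1143 CPM in EC and 1086 to 1228 CPM in EN, nearly all of it miR-126a-3p, while miR-126a-5p fell from 60.3 to 33.2 CPM (adjusted p = 0.0471 by edgeR). The 5 blood markers summed to 8.03 to 11.5 CPM in EC and 20.8 to 33.1 CPM in EN, with miR-144-3p at 0 in 5 of the 6 libraries. Of these, miR-451-5p rose from 8.10 to 23.3 CPM (adjusted p = 0.0471 by edgeR), and the means of the other 4 were at most 1.60 CPM. The 3 muscle markers summed to 1.76 to 30.3 CPM in EC and 1.75 to 2.40 CPM in EN. Among them, miR-206-3p reached 28.9 CPM in EC replicate 1, where miR-133a-3p stood at 1.39 CPM and miR-1-3p at 0. The part of these cells in the results below was not tested. In bulk RNA, fewer cells of a type and less RNA per cell cannot be told apart.

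In these PC12 cells both families were carried by a few arms. MiR-301a-3p and miR-130a-3p had mean levels of 347 to 692 CPM, and miR-3590-5p was in the same range, while miR-152-3p and miR-148b-3p had means of 25.5 to 68.7 CPM. None of the members passed the main edgeR test of EN against EC. The member with the largest difference was miR-130a-3p, whose EN level was 0.502 times its EC level, while miR-301a-3p, of the same family, had about the same level in both groups.

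**Figure D1:**
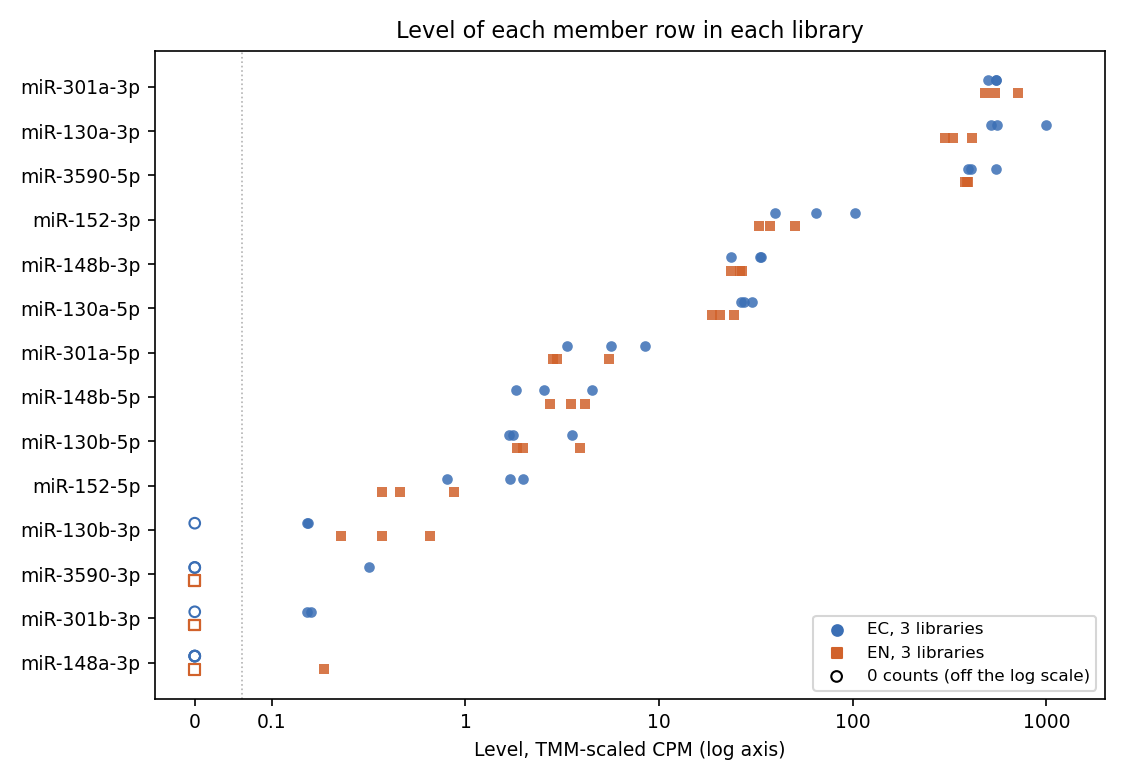
Level of each of the 14 rows in each library, in TMM-scaled CPM on a log axis, with circles for EC and squares for EN and open symbols for 0 counts. MiR-301a-3p, miR-130a-3p and miR-3590-5p lie at 300.1 CPM or more in every library, and the EN squares of miR-130a-3p lie below its EC circles.

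The guide arm rno-miR-130a-3p measured 998, 518 and 558 CPM in EC replicates 1, 2 and 3, against 411, 300.1 and 329 CPM in the EN replicates. The groups did not overlap, and EC replicate 1 stood far above the other libraries. The means were 692 ± 266 and 347 ± 57.7 CPM (SD, n = 3), and the log2 fold change was -0.995 (SE 0.27). The Benjamini-Hochberg adjusted p over the 628 rows tested was 0.0880 in edgeR's quasi-likelihood fit. DESeq2 and library totals taken from the deposited RPM values did place it past the threshold of 0.05, with adjusted p of 0.00306 and 0.0298. Without EC replicate 1, the log2 fold change was -0.62 with adjusted p = 0.170 by edgeR. In that library miR-206-3p, alone of the muscle markers, was also high, and a link was not tested.

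The other arm of the hairpin, miR-130a-5p, measured 27.3, 30.2 and 26.6 CPM in the EC replicates, against 20.7, 24.5 and 18.8 CPM in EN. The groups did not overlap here either, and EC replicate 1 was not apart from the others. The log2 fold change was -0.39 (SE 0.15), with adjusted p = 0.178 by edgeR. With library totals from RPM it was -0.73, with adjusted p = 0.0239, a setting in which edgeR called 101 of 619 rows. Relative to the median of all rows, miR-130a-5p stood at -0.41 with TMM scaling and -0.43 with these totals.

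MiR-3590-5p, on the strand opposite miR-130a-3p, measured 547, 393 and 410 CPM in the EC replicates, against 392.5, 390.2 and 378 CPM in EN. EC replicate 1 was again the highest, and the other 5 libraries lay close together. The log2 fold change was -0.22 (SE 0.15), with adjusted p = 0.472 by edgeR. Summed with miR-130a-3p, the 2 strands had means of 1141 ± 351 CPM (EC) and 734 ± 61.3 CPM (EN; SD, n = 3), with a log2 fold change of -0.65 and adjusted p = 0.113 by edgeR.

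The counts of both rows did not keep a fixed proportion. MiR-130a-3p had 1.83, 1.32 and 1.36 counts for each count of miR-3590-5p in the EC libraries, and 1.05, 0.769 and 0.872 in the EN libraries. Every EC ratio lay above every EN ratio, with a difference in mean log2 ratio of -0.74. Of 14 pairs of rows on opposite strands with 20 or more counts of both in every library, 4 had a wider spread of the share in percentage points. The widest was let-7a-5p with miR-3596a, where miR-3596a took from 0.0730 to 99.9 percent of the counts. In another pair, let-7e-5p with miR-3596c, miR-3596c took 20.9 to 23.02 percent. Percentage points give little weight to pairs with 1 scarce row, so the order of pairs by ratio can differ. In miR-9a-5p with miR-9b-3p, for example, miR-9b-3p took 0.581 to 1.68 percent. Whether the assignment of reads takes part in the miR-130a ratio was not tested. The two-sided exact permutation p was 0.1, the smallest that 3 against 3 libraries allow, and this ratio was chosen after its values were seen. In the other facing pair of arms, rno-miR-3590-3p had 0 counts in 5 libraries and 2 counts in EC replicate 2, while miR-130a-5p had 86 to 189 counts over all libraries.

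**Figure D2:**
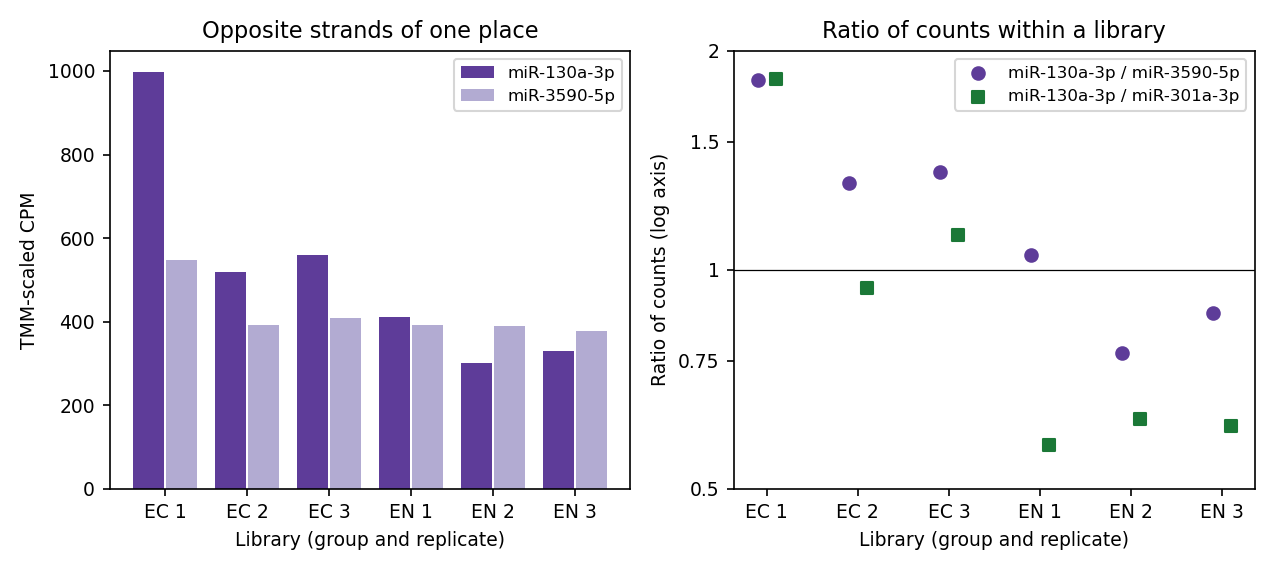
Left, TMM-scaled CPM of miR-130a-3p and miR-3590-5p in each library, from 0. Right, counts of miR-130a-3p divided by those of miR-3590-5p (circles) or miR-301a-3p (squares) on a log axis, where all EC ratios lie above all EN ratios in both series.

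MiR-301a-3p, the other abundant guide of the family, measured 546, 549 and 500.01 CPM in the EC replicates, against 716, 481 and 539 CPM in EN. The groups overlapped, and EN replicate 1 was the highest library. The means were 532 ± 27.5 and 579 ± 122 CPM (SD, n = 3), and the log2 fold change was 0.12 (SE 0.17) with adjusted p = 0.703 by edgeR. Its sign turned to -0.062 without EN replicate 1 and to -0.20 with library totals from RPM. MiR-301a-5p was at low levels, 2.85 to 8.49 CPM, with overlapping groups and a log2 fold change of -0.64 (SE 0.43, adjusted p = 0.448 by edgeR).

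Because these 3p arms belong to 1 family, their proportions show which of them supplied its counts. MiR-130a-3p made up 64.7, 48.5 and 52.7 percent of the family's counts in the EC libraries and 36.5, 38.4 and 37.9 percent in the EN libraries. MiR-301a-3p made up 35.3, 51.5 and 47.2 percent in EC and 63.5, 61.6 and 62.04 percent in EN. As the rows were counted, miR-301a-3p held the larger part in all 3 EN libraries and miR-130a-3p in EC replicates 1 and 3. With miR-3590-5p added, the miR-130a place measured 1545, 911 and 968 CPM in the EC replicates and 804, 690 and 707 CPM in EN, above miR-301a-3p in every library. The difference in the mean log2 ratio of miR-130a-3p to miR-301a-3p was -1.05, or -0.77 without EC replicate 1. The two-sided exact permutation p with all 6 libraries was 0.1, the smallest possible, for a ratio also chosen after its values were seen.

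**Figure D3:**
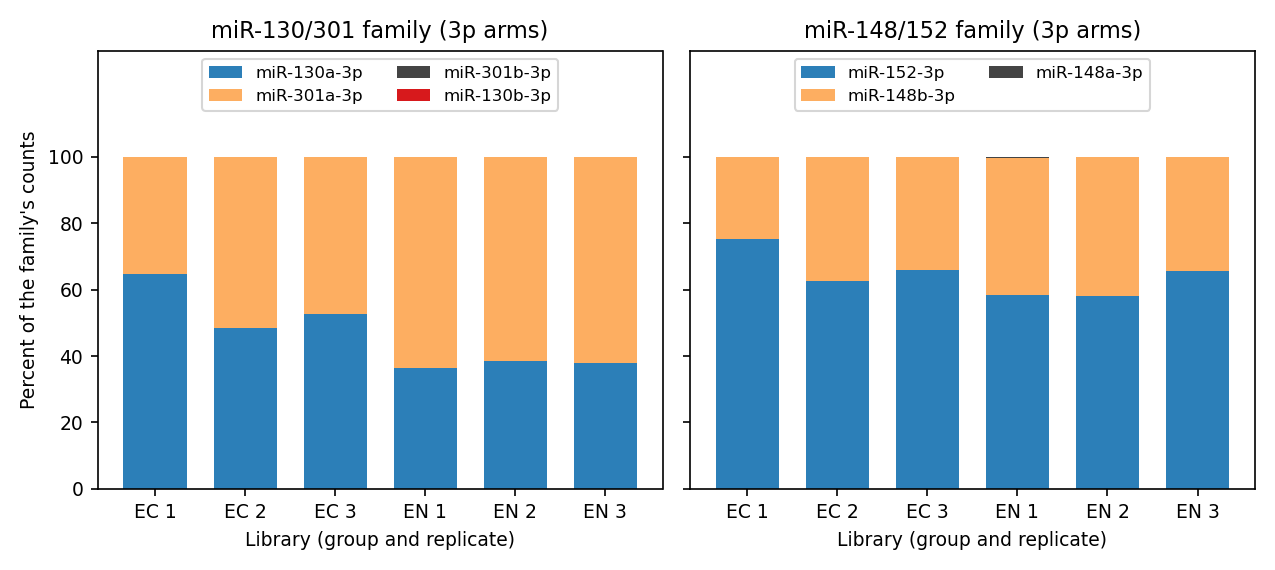
Percent of the counts of each seed family held by each 3p arm, by library. MiR-130a-3p holds 48.5 to 64.7 percent of the miR-130 and miR-301 counts in EC and 36.5 to 38.4 percent in EN, and miR-152-3p holds 58.1 percent or more of the miR-148 and miR-152 counts in every library.

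MiR-130b and miR-301b, whose genes are neighbours, contributed almost nothing as guides. MiR-130b-3p had 1, 0 and 1 counts in EC and 2, 1 and 3 counts in EN, and miR-301b-3p had at most 1 count in any library. A count of 0 allows up to 3 counts, or 0.458 to 0.686 CPM in these libraries. MiR-130b-3p was seen in most libraries, but in none above 3 counts, and no fold is given. The bound covers counting error only. MiR-130b-5p, the arm opposite the known guide, had 9 to 23 counts and took 75 to 100 percent of the hairpin's counts. Its log2 fold change was 0.13 (SE 0.47), with adjusted p = 0.886 by edgeR.

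MiR-152-3p led the miR-148 and miR-152 family. It measured 102.4, 39.4 and 64.4 CPM in the EC replicates, against 37.6, 32.7 and 50.4 CPM in EN. The groups overlapped, and EC replicate 1 was the highest library. The means were 68.7 ± 31.7 and 40.2 ± 9.14 CPM (SD, n = 3), with a log2 fold change of -0.77 (SE 0.35) and adjusted p = 0.263 by edgeR. The log2 fold change was -0.36 without EC replicate 1 and -1.03 without EC replicate 2.

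MiR-148b-3p measured 33.5, 23.5 and 33.1 CPM in the EC replicates, against 26.6, 23.5 and 26.3 CPM in EN. These groups overlapped too, with a log2 fold change of -0.24 (SE 0.18) and adjusted p = 0.512 by edgeR. MiR-148a-3p, an abundant miRNA of many tissues, had 0 counts in 5 libraries and 1 count in EN replicate 1. MiR-152-3p therefore made up 62.7 to 75.3 percent of the family's counts in EC and 58.1 to 65.7 percent in EN, and miR-148b-3p nearly all the rest. The 5p arms were scarce: miR-148b-5p stood at 1.83 to 4.48 CPM with a log2 fold change of 0.23 (SE 0.40, adjusted p = 0.774 by edgeR), and miR-152-5p had 2 to 13 counts and did not pass the filter on low counts.

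The family of miR-130 and miR-301 stood well above the miR-148 and miR-152 family. Its 3p arms took 0.155, 0.109 and 0.106 percent of miRNA counts in the EC libraries and 0.114, 0.0756 and 0.0872 percent in the EN libraries. The 3p arms of miR-148 and miR-152 took 0.0137, 0.00640 and 0.00975 percent in EC and 0.00648, 0.00544 and 0.00769 percent in EN. Both sums overlapped between groups. Ordered by the mean of both groups, miR-301a-3p, miR-130a-3p and miR-3590-5p led, and neighbours in this order overlapped over libraries. MiR-152-3p stood below these 3 in every library and above miR-148b-3p in every library, while miR-148b-3p and miR-130a-5p overlapped. MiR-301a-5p, miR-148b-5p and miR-130b-5p overlapped one another as well.

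Of the 14 members, 9 passed the filter on low counts. At the adjusted threshold of edgeR, 0 of these 9 were called, against 25 of all 628 rows, or 3.98 percent. At an unadjusted p under 0.05 there were 2, miR-130a-3p and miR-130a-5p, against 21.7 percent of all rows. DESeq2 took in all 14 members, gave 6 of them no adjusted p and called 1, miR-130a-3p. Over all rows it called 83 of the 531 that it gave an adjusted p, or 15.6 percent. Limma-voom called 0 of the 9, against 23 of all rows, or 3.66 percent. The 3 EN libraries lay below the 3 EC libraries in 3 of the 9, against 14.6 percent of all rows, and above them in 0 of the 9, against 15 percent. Log2 fold changes were negative in 6 of the 9, against 49.2 percent of all rows. The median was -0.24 over the 9 and 0.02 over all rows. The 3 without overlap, miR-130a-3p, miR-130a-5p and miR-3590-5p, come from 1 place in the genome and are not independent.

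EC replicate 1 was the highest of the 6 libraries in 6 of the 9 tested members, and in 17.4 percent of all rows tested. Those 6 were miR-130a-3p, miR-3590-5p, miR-301a-5p, miR-148b-3p, miR-148b-5p and miR-152-3p. Without it the log2 fold changes were nearer to 0 for miR-3590-5p, at -0.044, miR-301a-5p, at -0.26, and miR-148b-3p, at -0.14, as for miR-130a-3p and miR-152-3p above. That of miR-148b-5p was farther from 0, at 0.67.

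**Figure D4:**
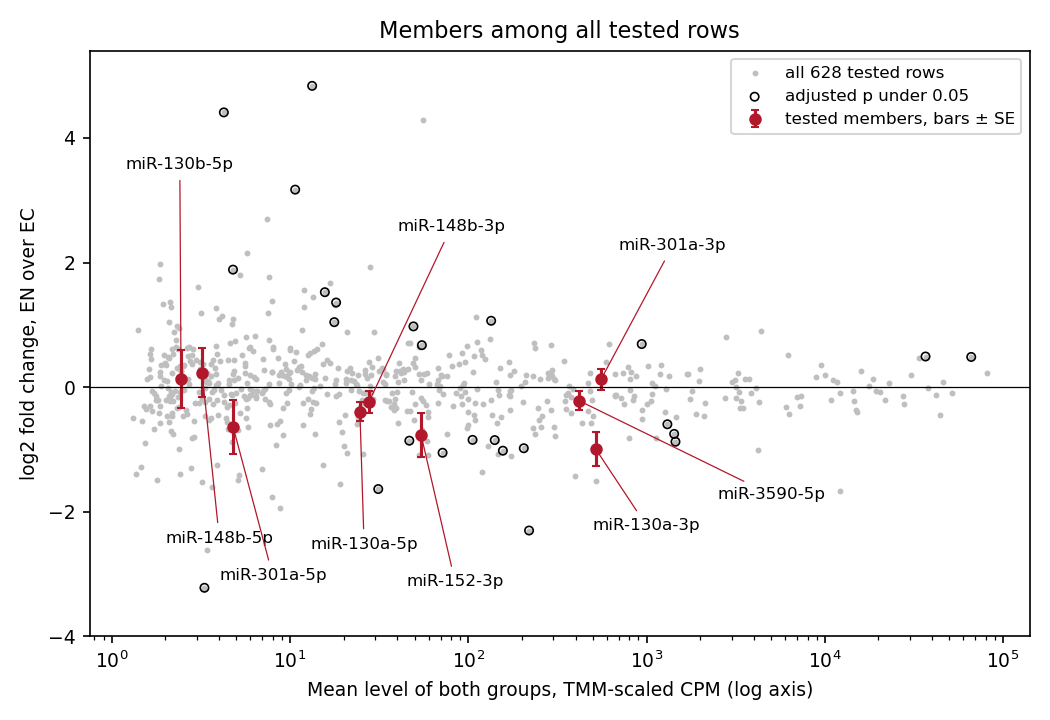
Log2 fold change of EN over EC against the mean level in TMM-scaled CPM (log axis) for all 628 tested rows in grey, with rows past the threshold ringed and the 9 tested members in red with their SE. MiR-130a-3p lies lowest of the members at -0.995, and none of the members is ringed.

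Scaling bears on all of these values. Of the totals implied by RPM, miRNA counts were 32.6, 32.2 and 30.9 percent in EC and 26.9, 24.99 and 25.5 percent in EN. When these library totals replaced the miRNA counts, 101 of 619 rows were called, 13 higher and 88 lower in EN. Of the 9 tested members, miR-130a-3p and miR-130a-5p were among those called lower. With TMM scaling 13 rows were higher and 12 lower, of 628. Over all rows the median log2 fold change went from 0.02 to -0.30, and all 9 tested members were then negative. Relative to the median of all rows, miR-130a-3p stood at -1.02 under either scaling, and miR-301a-3p at 0.10.

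**Figure D5:**
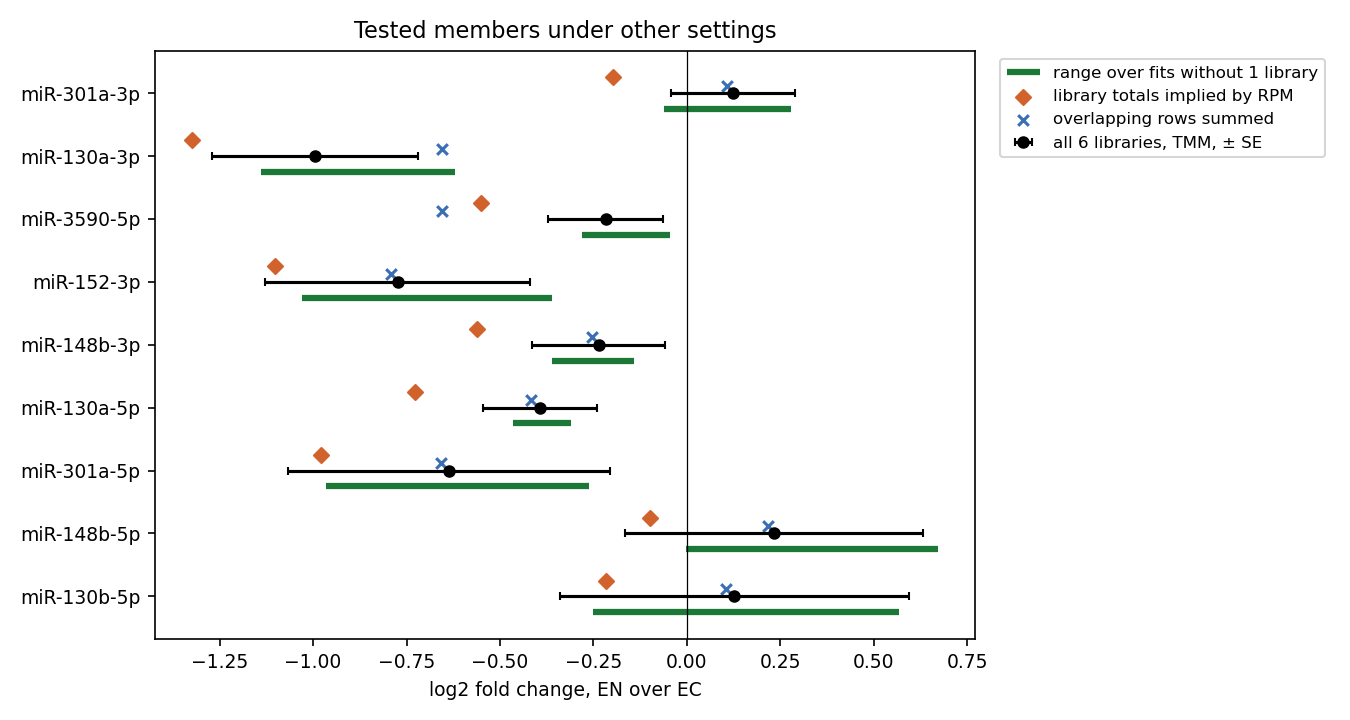
Log2 fold change of EN over EC for the 9 tested members with all libraries and TMM scaling (black, ± SE), with library totals implied by RPM (diamonds), with rows of overlapping genes summed (crosses), and the range over fits that leave out 1 library (green). Every diamond lies to the left of its black point, and the green range of miR-130a-3p runs from -1.14 to -0.62.

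Arm use was compared as the log2 ratio of 5p to 3p counts within a library, which does not depend on library size. MiR-130a and miR-301a were the members whose arms both averaged at least 20 counts. For miR-130a the ratio was -5.18, -4.10 and -4.39 in EC and -4.30, -3.60 and -4.11 in EN, so the 3p arm dominated in every library and the groups overlapped. The difference was 0.55 (SE 0.34), with adjusted p = 0.353 by limma, and it was 0.23 without EC replicate 1 and 0.35 without EN replicate 2. These miR-130a values also rest on how reads were assigned to the 2 strands. On the 3p side miR-3590-5p took 35.4 to 56.5 percent of the pair's counts. Facing miR-130a-5p, miR-3590-3p took 0 to 1.05 percent. For miR-301a the means were -6.57 ± 0.67 and -7.23 ± 0.74 (SD, n = 3), a difference of -0.66 (SE 0.49) with adjusted p = 0.441 by limma. That difference was -0.37 without EC replicate 1, -0.36 without EN replicate 1, -1.02 without EC replicate 2 and -1.08 without EN replicate 2. Limma called 5.61 percent of the 107 miRNAs tested. The 5p arm took 5.24 to 13.7 percent of the counts of miR-148b and 0.976 to 2.99 percent of those of miR-152.

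Other miRNAs with related seeds or targets did not pass either. MiR-19a-3p and miR-19b-3p, members of the miR-17-92 cluster, carry a seed that overlaps that of miR-130 with a shift.
miR-19b-3p: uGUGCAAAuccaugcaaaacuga
MiR-19b-3p had means of 164 ± 10.2 CPM (EC) and 196 ± 15.7 CPM (EN; SD, n = 3), with every EN library above every EC library and a log2 fold change of 0.26 (SE 0.13, adjusted p = 0.299 by edgeR). MiR-19a-3p was at 2.39 to 3.94 CPM, with a log2 fold change of 0.43, and miR-291b was not tested. The median of the 2 tested was 0.34, beside 0.02 over all rows. Of the 3 miR-29 guides, which are known to repress DNMT3A and DNMT3B, 0 passed, against 3.98 percent of all rows, and their median was -0.65. In all 3, every EN library lay below every EC library, against 14.6 percent of all rows. Their adjusted p ran from 0.0515 to 0.135 by edgeR. MiR-29b-3p stood at 5658 ± 1635 and 2811 ± 446 CPM, with a log2 fold change of -1.01 and adjusted p = 0.0515 by edgeR.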

How the data were processed

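The authors deposited a table of read counts per mature miRNA in 6 libraries and, beside them, RPM values, which equal the deposited count divided by 1 total per library within 0.0015 in 100 percent of rows. That total is 17861218 to 21207786 reads, more than the miRNA counts, and no source used here says what it holds. The submitters' processing notes name HISAT2 2.0.5 and Rnor 6.0. No source used here gives their role, the counter, the miRNA annotation, the strand rule or the treatment of multiply matching reads. RNA was extracted with Trizol and prepared with a TruSeq RNA kit, per the labels' protocols.

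The count test was that of edgeR 4.0.16 (R 4.3.3): filterByExpr, TMM factors, robust quasi-likelihood test, and Benjamini-Hochberg adjustment over 628 rows at 0.05. SE is the size of the log2 fold change over the root of F. Arm use was tested by limma 3.58.1 on log2((5p + 1)/(3p + 1)) where both arms had a mean of 20 or more counts. Shares of counts had no test. DESeq2 1.42.0, limma-voom, other scalings and filters, a replicate block and each library left out were alternatives. Overlapping rows are those whose mature arms share 50 percent or more of the shorter arm. Tests were run on simulated data first. All members were to be named, those with 10 CPM or more in either group by library, with rows of overlapping genes, related seeds and the miR-29 guides. The members and lists were chosen with earlier results of these data known. RefSeq sequences and neighbours come from GRCr8, whose coordinates are not given because the build differs. MiR-148a-5p and miR-301b-5p were not analysed here. The labels do not say what a replicate number shares, so the numbers were not taken as pairs. Deviations from the group means correlated at 0.0912, -0.0357 and 0.0180 between same-numbered libraries, and at -0.124 to 0.0954 between others. Deviations within a group of 3 sum to 0, so these values cannot tell whether libraries were paired. Tables were made with pandas 2.3.3 in Python 3.11.15, and figures with matplotlib 3.10.9.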

Additional observations from a re-analysis of the deposited data

How the results depend on the processing

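The 25 called rows became 101 with library totals implied by RPM, 44 without a filter, 83 with DESeq2, 2 with the replicate block (1 higher and 1 lower), and 2 to 39 without 1 library. The 6 arm use calls became 3 with a mean of 100 or more counts, 0 with the replicate block and 1 to 13 without 1 library. No member was called with the replicate block, where miR-130a-3p was at -0.94 (adjusted p = 0.113 by edgeR). MiR-130a-3p passed with DESeq2 at -1.02 and with RPM totals at -1.32, and miR-130a-5p with RPM totals at -0.73. For miR-130a-3p the adjusted p ranged from 0.00306 to 0.270 over 17 alternatives, and its log2 fold change from -1.14 to -0.62 without 1 library.

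No member passed in the main fit, and under other settings 3 members and 2 sums of counts turned sign. With RPM totals, a divisor that moved the median of all rows, miR-301a-3p became -0.20, miR-130b-5p -0.22 and miR-148b-5p -0.098. Without 1 library, miR-301a-3p ranged from -0.062 to 0.28, miR-130b-5p from -0.25 to 0.57 and miR-148b-5p from -0.0013 to 0.67. The EN minus EC difference in the share of miRNA counts, -0.0312 percentage points for the 3p arms of miR-130 and miR-301 and -0.0425 for all members, became 0.0040 and 0.00034 without rows of overlapping genes, which removes miR-130a and miR-3590, and -0.0151 and -0.0195 without EC replicate 1. Beyond these changed inputs the cause was not tested. The log2 ratio differences, with leave-one-out fits chosen after seeing the data, ranged from -0.86 to -0.59 for miR-130a-3p to miR-3590-5p and from -1.25 to -0.77 for miR-130a-3p to miR-301a-3p. Depth limits miR-130b-3p, miR-301b-3p, miR-148a-3p and miR-3590-3p, at 3 counts or fewer in any library.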

Other observations

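Among 24 pairs of rows on opposite strands of the same place with a mean sum of 100 or more counts, 14 had 20 or more counts of both rows in every library. MiR-130a-3p with miR-3590-5p was one of them, and miR-3590-5p took 35.4 to 56.5 percent of the pair's counts, a spread of 21.1 percentage points. In 4 of the 14 pairs the share varied more widely between libraries, up to 99.8 percentage points for let-7a-5p with miR-3596a. By contrast, let-7e-5p with miR-3596c had a steady share, with miR-3596c at 20.9 to 23.02 percent. The facing pair on the same hairpin, miR-130a-5p with miR-3590-3p, was among the 10 pairs without such counts, with miR-3590-3p at 0 to 1.05 percent.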
